A study of Homo sapiens with 12 samples.

Results

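The genes described are 10 secreted regulators of blood vessels and of the extracellular matrix: the angiopoietin-like genes ANGPTL2 and ANGPTL4, the angiopoietins ANGPT1 and ANGPT2, the thrombospondins THBS1, THBS2 and THBS3, and the vascular endothelial growth factors VEGFA, VEGFB and VEGFC. They were taken by symbol from count files of 56832 symbols, and each of the 10 was found. ANGPTL2 and THBS1 were selected on their measured T3 response in the empty-vector libraries, so every value of theirs that rests on empty-vector libraries is a description without a test. Of the 10 members, 6 passed the filter on low counts (ANGPTL2, THBS1, THBS3, VEGFA, VEGFB and ANGPT1). ANGPTL4, THBS2, VEGFC and ANGPT2 did not and are given as raw counts.

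VEGF proteins bind receptor tyrosine kinases on endothelial cells and drive their growth and migration, and VEGFA is the best known target of the transcription factors that answer low oxygen. Angiopoietins act on the endothelial receptor TIE2, where ANGPT1 stabilises vessels and ANGPT2 mostly opposes it. Angiopoietin-like proteins resemble the angiopoietins in structure but do not bind TIE2, ANGPTL2 being a mediator of inflammation and matrix remodelling and ANGPTL4 an inhibitor of lipoprotein lipase. THBS1 and THBS2 restrain angiogenesis through CD36 and CD47, and THBS1 also activates latent TGF-beta.

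RNA was measured in SW1736, an established cell line from an anaplastic thyroid cancer. The cells stably carried pCDH-TRB, which expresses the thyroid hormone receptor beta (THRB), or the empty vector pCDH-EV, and are called TRB cells and EV cells here. All 12 cultures were starved of hormone for 24 h in phenol-red free medium with charcoal stripped FBS and then given 10nM T3, the active thyroid hormone, or vehicle (NaOH) for 24 h, with 3 libraries in each of the 4 groups. Whether a line is a clone or a pool, and whether the replicates are separate cultures, is not given in the sources used here, so the p-values measure only the spread between these libraries.

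Library totals within genes ran from 3819306 to 13086717 counts. THRB was at 12.3 to 18.3 CPM (counts relative to library size, scaled by trimmed mean of M-values) in the EV libraries. In TRB cells it was at 79.8 to 80.4 CPM with vehicle and at 190 to 322 CPM with T3, so it was higher in every TRB library, and higher again in those with T3. The part of this difference in receptor RNA in the T3 responses of TRB cells was not tested. The 7 endothelial markers searched were each at 3 counts or fewer in every library, with KDR and CDH5 at 0. The keratins KRT8, KRT18 and KRT19 with EPCAM and CDH1 summed to 2028 to 5013 CPM, while the thyroid follicular markers TSHR and FOXE1 were at 0 and PAX8 was at most 6.98 CPM. Of 6 mesenchymal or stromal markers, 4 were at 3 counts or fewer in every library. VIM was at most 1.51 CPM, and COL1A1 was at 1.44 to 33.2 CPM. Of 5 leukocyte markers, 3 were at 3 counts or fewer, CD68 was at most 1.01 CPM and CD14 at most 9.74 CPM. TRB with T3 replicate 2 stood apart. Its log2 CPM correlated with replicates 1 and 3 of its group at Pearson r 0.821 and 0.803 across genes, while those 2 correlated at 0.992 and pairs within the other groups at 0.955 to 0.994. The biological coefficient of variation was 0.329 with all 12 libraries, 0.131 without that library and 0.319 to 0.353 without any other. A trend with GC content was not particular to it. Across 12157 genes, Spearman's rho was taken between transcript GC content and the excess of a library's log2 CPM over the mean of its group's other libraries. It was -0.90 for TRB with T3 replicate 2, but also -0.83 and 0.80 for EV with T3 replicates 2 and 3 and -0.66 for EV with vehicle replicate 2. The other TRB libraries with T3 were at 0.87 and 0.89, but against a mean that includes replicate 2, so these values partly mirror its own. The values within the other groups are likewise not independent, and rho does not give the size of a trend. The members' T3 responses in TRB cells are given with and without TRB with T3 replicate 2. Other values are from 12 libraries unless stated.

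T3 raised ANGPTL2 and THBS1 and lowered VEGFA in TRB cells. These were 3 of the 6 tested members, where 14.7% of all 14431 tested genes passed edgeR's quasi-likelihood test at a Benjamini-Hochberg adjusted p under 0.05. ANGPTL2 and THBS1 were picked for their T3 response in EV cells of the same line, so their part in this count is not independent. Of the 4 tested members outside the picked pair, VEGFA alone passed. Without TRB with T3 replicate 2 the members that passed were 5, with THBS3 and VEGFB added, both lower, where 33.3% of 14825 genes passed. In TRB cells the T3 and vehicle libraries did not overlap for 5 of the 6 tested members, the picked pair among them and ANGPT1 being the exception. The same held for 40.8% of all tested genes. In EV cells the groups of VEGFA and ANGPT1, among the members not picked there, did not overlap, nor did those of 26.9% of all tested genes. With 12 libraries 0 of the 4 tested members outside the picked pair passed in EV cells (0.229% of all genes passed), and 0 passed between TRB and EV cells in vehicle (0.0208%), between them with T3 (6.68%) or in the interaction of vector and T3 (2.59%). At an unadjusted edgeR p under 0.05 these counts were 1, 0, 2 and 2 of the 4, where 6.1%, 1.48%, 25.5% and 20% of all genes were under it. DESeq2 called 1 in EV cells, VEGFA (1.19% of all genes), and 0 in the other 3 comparisons (0.0554%, 13.2% and 7.08%).

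**Figure D1:**
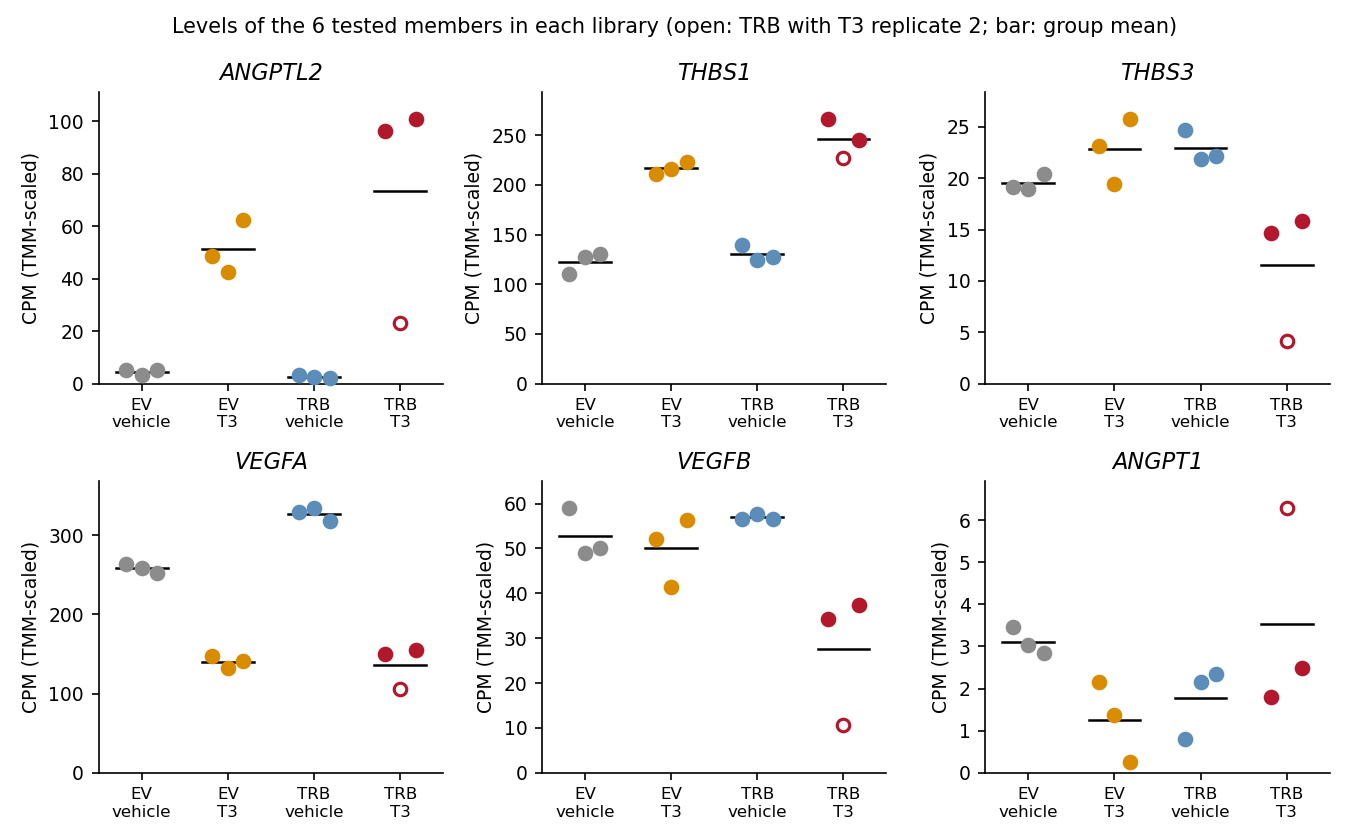
Level of the 6 tested members in each of the 12 libraries, in CPM on a linear axis from 0, with 3 points per group in the order of their replicate numbers, a bar at the group mean and TRB with T3 replicate 2 drawn open. ANGPTL2 and THBS1 sit higher with T3 in both cell types and VEGFA sits lower, and the open point lies below the other TRB libraries with T3 for all of them but ANGPT1, by little for THBS1.

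Promoter sequences came from a RefSeq table (GRCh38.p14) that matched 7 of the 10 members, THBS3 with 2 entries. VEGFA, ANGPT1 and ANGPT2 had no entry, so their promoters were not searched for any motif. The sequences are shown because ANGPTL2 and THBS1 rose together with T3. In the 250 bases before each RefSeq start, on both strands, the thyroid hormone receptor half-site AGGTCA was in 0 of the 8 member entries and in 12.1% of 35116 promoters. The direct repeat of that half-site with 4 bases between, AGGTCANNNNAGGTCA, was also in 0 entries and in 0.0142% of promoters. The hypoxia response core ACGTG was in 2 entries, THBS2 and ANGPTL4, against 18.5% of promoters. The GC box GGGCGG was in 7 of the 8 entries, against 42.6% of promoters, and the TATA box TATAAA in THBS2 and ANGPTL4, against 10.7%. These motifs do not overlap one another in letters, except that the half-site is part of its repeat. The sequences below run 5′ to 3′ along the gene's strand: the whole THBS1 window (chr15:39580829-39581078, plus strand) and 30 bases around a GC box of ANGPTL2 (chr9:127122788-127122817, minus strand) and of VEGFB (chr11:64234554-64234583, plus strand), with GC boxes in capitals on either strand (CCGCCC is the reverse complement).
THBS1: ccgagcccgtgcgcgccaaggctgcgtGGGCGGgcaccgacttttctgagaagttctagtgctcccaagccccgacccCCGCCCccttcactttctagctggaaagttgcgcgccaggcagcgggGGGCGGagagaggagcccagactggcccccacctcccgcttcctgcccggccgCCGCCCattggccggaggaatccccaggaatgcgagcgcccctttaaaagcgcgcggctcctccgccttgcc
ANGPTL2: tgtgacatcaccGGGCGGcccgcctctgtc
VEGFB: ccagcccgggcccagccccccgCCGCCCcc
Stretches of 30 bases around the TATA box, in capitals, of ANGPTL4 (chr19:8364114-8364143, plus strand) and THBS2 (chr6:169253858-169253887, minus strand), members that were barely detected, follow.
ANGPTL4: ccgcacccaactTATAAAaaccgtcctcgg
THBS2: ggagaagcggcaTATAAAgccgcgctgccc
The RefSeq start equals the GENCODE gene start for THBS1 and lies downstream of it by 46 bases for VEGFB, 198 for THBS2, 248 for ANGPTL2 and 866 for ANGPTL4, so these 4 stretches lie inside the GENCODE gene bounds. THBS1 held 4 GC boxes in its window and VEGFB 6, and ANGPTL2, whose fitted response in TRB cells was the largest of the tested members, held 2. A match or its absence describes only these letters in this window.

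ANGPTL2, on chromosome 9 (GRCh38, 127122883 down to 127087332, minus strand), was nearly silent without hormone. In TRB cells with vehicle it stood at 3.25, 2.67 and 2.10 CPM in replicates 1 to 3. With T3 the same cells gave 96.4, 23.2 and 101 CPM. Every T3 library was above every vehicle library, although replicate 2 had less than the other two. The fitted increase was 27.5-fold, a log2 fold change of 4.78 (SE 0.535, edgeR quasi-likelihood adjusted p 0.000197), and 38.3-fold without replicate 2 (log2 5.26, SE 0.221, adjusted p 4.25e-09). In bulk RNA more cells that express a gene and more RNA per cell cannot be told apart.

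The EV libraries, on which ANGPTL2 was picked, gave 5.21, 3.11 and 5.05 CPM with vehicle and 48.8, 42.5 and 62.5 CPM with T3. The means were 4.46 ± 1.17 and 51.3 ± 10.2 CPM (SD, n = 3), a fitted log2 difference of 3.53. With T3, TRB replicates 1 and 3 lay above all 3 EV libraries and replicate 2 lay below them. ANGPTL2 has a GC content of 53.8%, and replicate 2 was 2.08 lower than replicates 1 and 3 in log2 CPM. This was further than for most genes of like GC content. Tested genes at a median GC of 53.1% and 54.8% had medians of -0.88 and -1.23 and lower quartiles of -1.46 and -1.75. The gene lies inside RALGPS1 on the opposite strand, with 0 shared exonic bases. RALGPS1, a guanine nucleotide exchange factor gene, rose in TRB cells from 25.6 ± 0.758 to 54.7 ± 6.01 CPM (SD, n = 3, log2 1.10, SE 0.167, edgeR adjusted p 0.00138), and whether its reads contribute to the ANGPTL2 count was not tested.

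ANGPTL4 had 27 counts in all, in 9 libraries, with a range of 0 to 5 per library. The counts overlapped between all 4 groups: 0 to 3 in EV with vehicle, 2 in each EV library with T3, 0 to 5 in TRB with vehicle and 0 to 4 in TRB with T3. ANGPTL4 is a well known target of the PPAR receptors, and at this depth no response to T3 was detectable.

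ANGPT2 was found in TRB cells with T3 only among these libraries. It had 0 counts in the 9 libraries of the other groups and 9, 18 and 9 counts in TRB with T3 replicates 1 to 3, which is 0.675, 3.24 and 1.12 CPM. Against the mean of 3 counts in each TRB library with vehicle, the mean level with T3 was at least 6.18-fold higher, and at least 3.31-fold without replicate 2. Against the mean of 3 counts in each EV library with T3 the mean was at least 3.27-fold higher, and at least 1.75-fold without replicate 2. This does not hold for each pair of libraries. In EV with T3 replicate 3, 3 counts would be 0.759 CPM, above the 0.675 CPM of TRB with T3 replicate 1. In a fit with no filter on low counts, over 30412 genes, ANGPT2 passed both comparisons (edgeR adjusted p 0.00386 against TRB with vehicle and 0.0245 against EV with T3). Its interaction of vector and T3 could not be judged in that fit (edgeR adjusted p 0.9998), because ANGPT2 had 0 counts in both EV groups. Without replicate 2 ANGPT2 did not pass the filter and was not tested. ANGPT2 lies inside MCPH1 on the opposite strand and shares 78 exonic bases with it. MCPH1, a DNA damage response gene, was at 17.2 ± 0.757 CPM in TRB cells with vehicle and 38.8 ± 27.8 CPM with T3 (SD, n = 3), with its highest value, 70.9 CPM, in replicate 2. Its part in the ANGPT2 counts was not tested.

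ANGPT1 was low everywhere and its replicates scattered. EV cells had 3.47, 3.02 and 2.85 CPM with vehicle and 2.16, 1.37 and 0.253 CPM with T3, and did not overlap. TRB cells had 0.813, 2.15 and 2.35 CPM with vehicle and 1.80, 6.30 and 2.50 CPM with T3, and did overlap. The log2 difference was -1.17 (SE 0.616, edgeR adjusted p 0.901) in EV cells and 0.90 (SE 0.562, adjusted p 0.296) in TRB cells. In the fit of 11 libraries these were -1.12 (adjusted p 0.130) and 0.25 (SE 0.441, adjusted p 0.707), the latter 1.19-fold in place of 1.86-fold. Their difference, the interaction, was 2.07 (adjusted p 0.217), and 1.37 (adjusted p 0.166) without replicate 2. ANGPT1 is AT-rich, with a GC content of 37.2%, and replicate 2 was 1.47 higher than the other TRB libraries with T3 in log2 CPM.

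**Figure D2:**
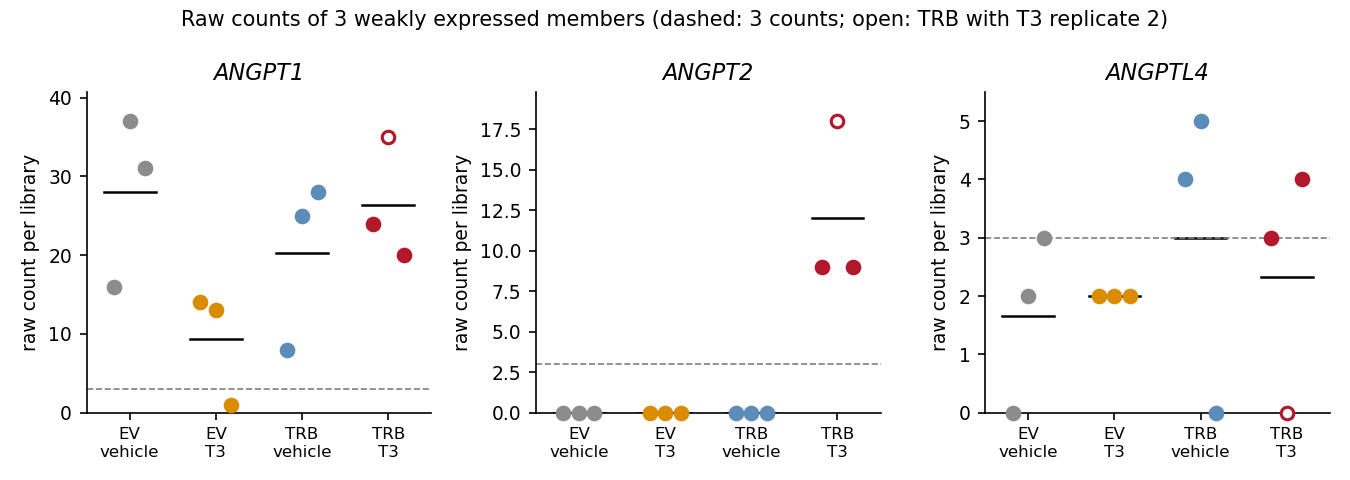
Raw counts per library of ANGPT1, ANGPT2 and ANGPTL4 in the 4 groups on linear axes, with a bar at the group mean, a dashed line at 3 counts and TRB with T3 replicate 2 drawn open. ANGPT2 has 9, 18 and 9 counts in TRB with T3 and 0 in the 9 other libraries, while ANGPTL4 reaches at most 5 counts.

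THBS1 rose with T3 in TRB cells. It lies on chromosome 15 (GRCh38, 39581079 to 39599466, plus strand). There it was at 139.5, 124.8 and 127 CPM with vehicle and at 267, 227 and 246 CPM with T3. All 3 T3 libraries, replicate 2 included, were above all 3 vehicle libraries, and the spread within each group was small. The increase was 1.89-fold (log2 0.92, SE 0.138, edgeR adjusted p 0.0013), and 2.03-fold (adjusted p 5.22e-06) without replicate 2. It did not pass when the TRB groups were fitted alone (adjusted p 0.0609).

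In the EV libraries, used to pick it, THBS1 was at 110.5, 127 and 131 CPM with vehicle and at 211, 216 and 223 CPM with T3, a fitted log2 difference of 0.82. The TRB libraries with T3 were above the EV libraries with T3, with means of 246.6 ± 19.7 and 216.6 ± 6.46 CPM (SD, n = 3). At a GC content of 47.7%, THBS1 was 0.17 lower in replicate 2 than in replicates 1 and 3 in log2 CPM. It shares 448 exonic bases with FSIP1 on the opposite strand, which was at most 1.98 CPM in any library.

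THBS3, a pentameric thrombospondin of the skeletal matrix, was lower with T3 in TRB cells. It was at 24.7, 21.9 and 22.2 CPM with vehicle and at 14.7, 4.14 and 15.9 CPM with T3. The T3 libraries were all lower, replicate 2 by far the lowest. The log2 difference was -0.97 (SE 0.373, edgeR adjusted p 0.112) with 12 libraries and -0.54 (SE 0.136, adjusted p 0.00843) without replicate 2. EV cells showed 19.1, 18.96 and 20.4 CPM with vehicle and 23.2, 19.4 and 25.8 CPM with T3, which overlapped (log2 0.22, adjusted p 0.941). The interaction was -1.19 (adjusted p 0.244), and -0.75 (SE 0.184, adjusted p 0.0166) without replicate 2, so a different response of THBS3 under the 2 vectors was called without that library (15.2% of all genes were) and with GC offsets (adjusted p 0.0374, where 11.9% were), but not in the 12-library fit. THBS3 has a GC content of 56.3% and was 1.83 lower in replicate 2. With T3, THBS3 was also lower in TRB than in EV cells (-0.96, adjusted p 0.152, and -0.50, adjusted p 0.0228, where 19.7% of all genes passed in the latter fit). It shares 146 exonic bases with MTX1 and 1027 with the antisense gene AC234582.1, and MTX1 was at 3.24 to 13.7 CPM in the libraries with T3. THBS2 had 2 counts in all, 1 in a TRB library with vehicle and 1 in a TRB library with T3.

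VEGFA, on chromosome 6 (GRCh38, 43770184 to 43786487, plus strand), fell with T3 in TRB cells. It was at 329.6, 335 and 318 CPM with vehicle and at 149.7, 105 and 155 CPM with T3. The groups were far apart, with every T3 library under every vehicle library. The decrease was 2.39-fold (log2 -1.26, SE 0.164, edgeR adjusted p 0.000505), and 2.08-fold (log2 -1.05, SE 0.0931, adjusted p 2.51e-06) without replicate 2, which was 0.53 lower than its group.

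In EV cells VEGFA was at 263, 259 and 252 CPM with vehicle and at 147, 133 and 141 CPM with T3. The groups did not overlap, and the level with T3 was 1.84-fold lower (log2 -0.88, SE 0.163). This did not pass with 12 libraries (edgeR adjusted p 0.074) but did in the fit of 11 libraries (adjusted p 6.45e-05), at the same log2 difference of -0.88 and a standard error of 0.0821. In that fit VEGFA was the 1 called of the 4 tested members outside the picked pair, where 7.33% of all genes were called. With GC offsets on 12 libraries it also passed (-1.07, adjusted p 0.00248). The responses in TRB and EV cells differed by -0.38 (log2, 95% interval -0.88 to 0.12, adjusted p 0.335), and by -0.18 (interval -0.44 to 0.09) without replicate 2. In vehicle, the 3 TRB libraries lay above the 3 EV libraries, by 0.34 in log2 (SE 0.161); VEGFA, THBS3 and ANGPT1 were the members whose vehicle groups did not overlap, as did not 36.3% of all genes. That difference did not pass in either fit (adjusted p 0.9997 and 0.189, with 0.0742% of all genes called in the latter), and passed when the vehicle groups were fitted alone (adjusted p 0.0168). With T3 the cell types overlapped, at 137 ± 27.4 CPM in TRB and 140.4 ± 7.36 CPM in EV cells (SD, n = 3).

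VEGFB, a ligand of FLT1 linked to fatty acid uptake in endothelium, lay between 41.4 and 59.1 CPM in 3 of the groups. EV cells had 59.1, 49.0 and 50.0 CPM with vehicle and 52.2, 41.4 and 56.4 CPM with T3, and TRB cells with vehicle had 56.6, 57.6 and 56.6 CPM. TRB cells with T3 had 34.4, 10.6 and 37.5 CPM, all under the vehicle libraries. The difference in TRB cells was -1.04 in log2 (SE 0.365, edgeR adjusted p 0.0822), and -0.62 (SE 0.139, adjusted p 0.00415) without replicate 2. In EV cells it was -0.08 (adjusted p 0.973). The interaction did not pass in either fit (-0.97, adjusted p 0.296, and -0.54, adjusted p 0.0688). VEGFB has the highest GC content of the tested members, 62.3%, and was 1.74 lower in replicate 2. VEGFC, the lymphatic member of the family, had 0 counts in the 12 libraries, where 3 counts would be 0.225 to 0.759 CPM.

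**Figure D3:**
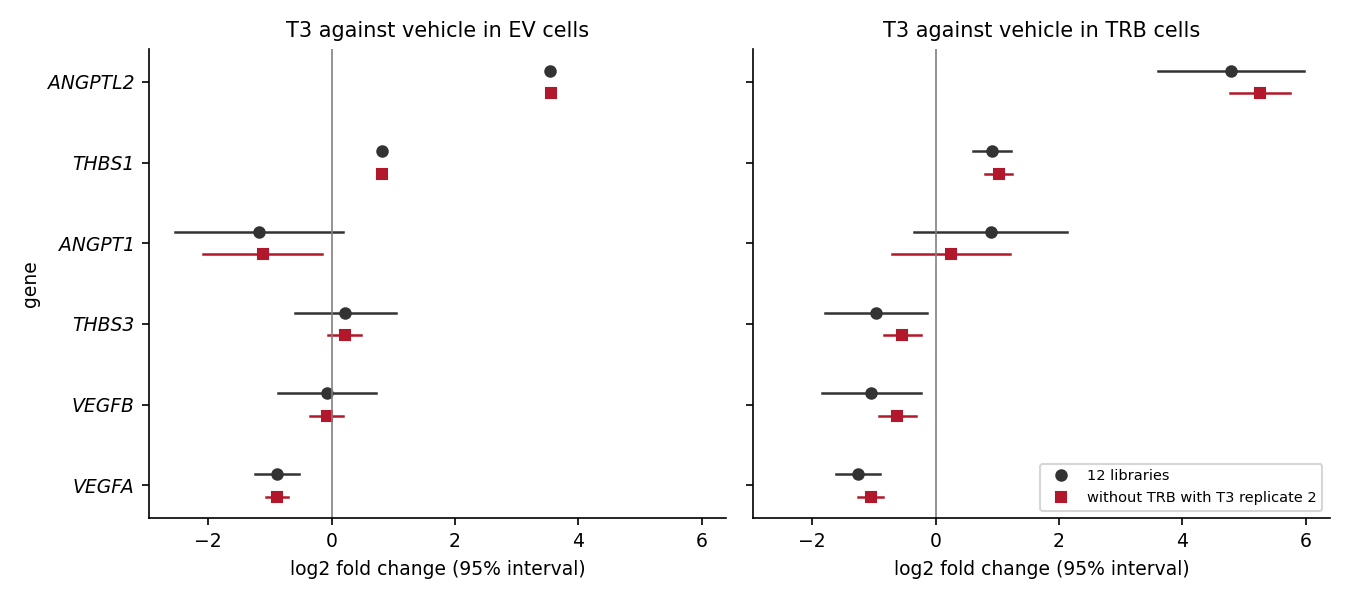
Log2 fold change of T3 against vehicle for the 6 tested members in EV cells (left) and TRB cells (right), from all 12 libraries (circles) and without TRB with T3 replicate 2 (squares), with 95% intervals except for ANGPTL2 and THBS1 in EV cells, on which they were picked. In TRB cells ANGPTL2 lies at 4.78 and 5.26, THBS1 near 1 and VEGFA near -1, and the intervals of the squares are narrower.

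With GC offsets, a correction chosen after seeing the data, 5 members passed in TRB cells with 12 libraries: ANGPTL2, THBS1, VEGFA, THBS3 (-0.76, edgeR adjusted p 0.00219) and VEGFB (-0.48, adjusted p 0.0275). The offsets raised the calls over all genes as well, to 36.7% of the 12157 genes with a GC value.

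**Figure D4:**
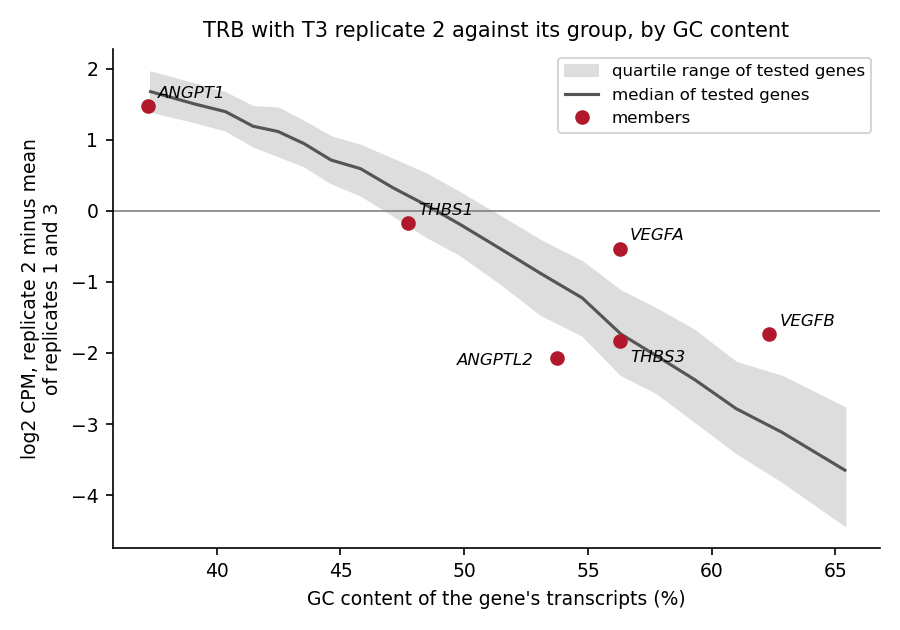
Difference in log2 CPM between TRB with T3 replicate 2 and the mean of replicates 1 and 3 against the GC content (%) of each gene's transcripts, with the median (line) and quartile range (band) of all tested genes in 20 GC bins and the 6 tested members as points. ANGPT1 at 37.2% GC lies at 1.47, THBS1 near the zero line at -0.17, and the GC-richer members ANGPTL2, THBS3, VEGFA and VEGFB below it. Of these, ANGPTL2 lies below the band, THBS3 within it, and VEGFA and VEGFB above it.

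Levels were compared between genes per kilobase of GENCODE exons. In EV cells with vehicle the order was VEGFB (34.1 ± 3.60 CPM per kb, SD, n = 3), VEGFA (17.9 ± 0.407), THBS1 (13.4 ± 1.17), THBS3 (4.22 ± 0.171), ANGPTL2 (1.15 ± 0.302) and ANGPT1 (0.437 ± 0.0453), and no neighbours came within their spread. In TRB cells with T3 the order was THBS1 (26.9 ± 2.15), ANGPTL2 (18.9 ± 11.2), VEGFB (17.8 ± 9.51), VEGFA (9.48 ± 1.90), THBS3 (2.50 ± 1.40) and ANGPT1 (0.495 ± 0.339). With all 3 libraries THBS1, ANGPTL2, VEGFB and VEGFA each lay within the spread of their neighbour, and ANGPTL2 stood in the second place instead of the fifth. Without replicate 2 the order was the same, with THBS1 at 28.0 ± 1.64 CPM per kb (SD, n = 2), ANGPTL2 at 25.4 ± 0.853, VEGFB at 23.3 ± 1.42 and VEGFA at 10.6 ± 0.272. The exons of all VEGFA transcripts together span 14431 bases, longer than one transcript, so its level per kilobase is an understatement. Lengths of the other members were merged over their transcripts in the same way. The SD does not cover this choice of length, and the order was not tested with another.

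Genes around the members were read from lists, against 8.54% of all tested genes that rose and 6.2% that fell with T3 in TRB cells, and 33.3% called in either direction without replicate 2. The 42 list genes called in TRB cells with 12 libraries were all called in the same direction without replicate 2, with log2 fold changes that moved by between -0.69 (CXCL8) and 0.58 (FURIN). Receptors and binding partners of the members were a list of 21 genes, of which 10 were tested. In TRB cells T3 raised 2 and lowered 1, with a median log2 fold change of 0.52 (0.01 over all tested genes), and without replicate 2 it raised 5 and lowered 2. NRP1, the neuropilin co-receptor of VEGFA, rose from 46.4 ± 1.37 to 400.5 ± 70.6 CPM (SD, n = 3, log2 3.11, SE 0.179, edgeR adjusted p 3.25e-06). EV cells had NRP1 at 48.8 ± 3.25 and 68.3 ± 8.74 CPM, and the interaction was 2.62 (adjusted p 0.000487). CALR, which forms with LRP1 a receptor for THBS1, rose (1.53, adjusted p 0.000716), and the proteoglycan SDC4 fell (-0.77, adjusted p 0.00478). The VEGF receptors FLT1 and KDR were at 0 in every library and FLT4 and the angiopoietin receptor TEK at 2 counts or fewer. Of 10 further members of the same families, such as ANGPT4, THBS4 and PGF, 0 passed the filter on low counts.

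VEGFA fell in TRB cells, where most other genes known to be induced by low oxygen rose. Of 25 such genes, VEGFA not among them, 23 were tested, and in TRB cells T3 raised 16 and lowered 1, DDIT4. Their median log2 fold change was 1.03 (0.01 over all genes), beside -1.26 for VEGFA. PFKFB3, a glycolytic regulator, rose by 2.56, the vasodilator peptide ADM by 2.47, PFKFB4 by 2.46 and the carbonic anhydrase CA9 by 2.35. DDIT4, an inhibitor of mTORC1 signalling, fell as VEGFA did, by 1.86 (edgeR adjusted p 0.00388). The glucose transporter gene SLC2A1 was at -1.20 (adjusted p 0.104), and at -0.71 (adjusted p 0.00221) without replicate 2. In that fit 17 of the 23 rose and 3 fell, SLC2A1, DDIT4 and MXI1. HIF1A, the oxygen-regulated subunit of the hypoxia-inducible factor, rose from 118.8 ± 13.9 to 595 ± 333 CPM (SD, n = 3, log2 2.32, edgeR adjusted p 0.000998), and by 1.81 (adjusted p 2.25e-06) without replicate 2. Its values in TRB cells with T3 ran from 398 to 980.0 CPM, the highest in replicate 2.

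In EV cells the same 23 genes had a median of -0.09, with 0 called by edgeR in 12 libraries and 1 by DESeq2. Without TRB with T3 replicate 2 edgeR called 5 (7.33% of all genes), PFKFB3 higher and SLC2A1, PDK1, MXI1 and DDIT4 lower. DDIT4 fell by the most (-1.71, edgeR adjusted p 5.96e-05, and -1.69, adjusted p 0.103, with 12 libraries). VEGFA moved the same way as the 4 that were lower. With T3, 12 of the 23 were higher in TRB than in EV cells (4.13% of all genes). The interaction called 3, ADM, EGLN1 and P4HA1 (2.59% of all genes), and 17 without replicate 2 (15.2%). In TRB cells 17 were called with 12 libraries and 20 after leaving out TRB with T3 replicate 2, but 9 after leaving out any of the TRB vehicle libraries and 5 when the TRB groups were fitted alone. The comparison with T3 gave 4 without EV with T3 replicate 1, 7 without EV with T3 replicate 3, 19 without TRB with T3 replicate 2 and 0 with these groups alone. PFKFB4 lost its call in 5 of 12 leave-one-out fits and CA9 in 9, with adjusted p up to 0.0864 and 0.121. The libraries whose omission ended both calls were each TRB vehicle library and T3 replicates 1 and 3 of the TRB cells, and for CA9 also each EV vehicle library and T3 replicate 1 of the EV cells. PFKFB3, ADM and HIF1A passed in TRB cells in all 12.

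**Figure D5:**
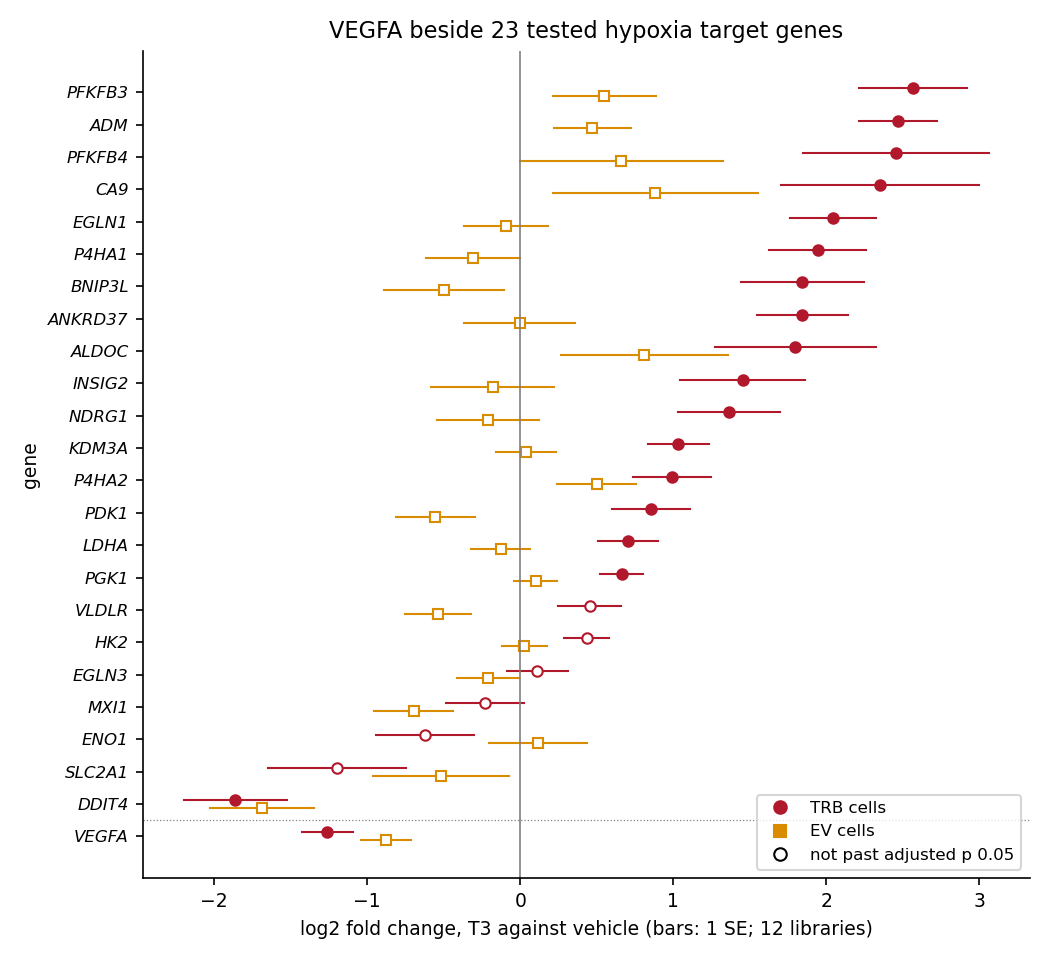
Log2 fold change of T3 against vehicle, with bars of 1 standard error, for VEGFA (bottom, under the dotted line) and the 23 tested hypoxia target genes in TRB cells (circles) and EV cells (squares), from 12 libraries, with open symbols where the edgeR adjusted p is not under 0.05. In TRB cells 16 targets lie to the right at up to 2.56, while VEGFA lies at -1.26 in TRB and -0.88 in EV cells.

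Other regulators of angiogenesis moved in both directions. Of 21 tested, T3 raised 5 and lowered 6 in TRB cells, with a median of -0.09, and raised 9 and lowered 8 of 22 without replicate 2. The count of 11 became 7 without TRB with vehicle replicate 1 and 6 with the TRB groups alone. The matricellular gene CTGF (3.17, edgeR adjusted p 7.91e-06), TNFSF15, an inhibitor of endothelial growth (1.84, adjusted p 0.000445), the vasohibin gene VASH2 (1.32, adjusted p 0.014) and the ephrin ligand EFNB2 (1.30, adjusted p 0.00066) rose. The ribonuclease angiogenin ANG (-3.32, adjusted p 0.00115), the CCN family gene NOV (-2.09, adjusted p 0.00146), the chemokine CXCL1 (-1.87, adjusted p 0.000704) and the Notch ligand JAG1 (-1.78, adjusted p 3.11e-05) fell. VASH2 lost its call without TRB with vehicle replicate 1 (adjusted p 0.0586).

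THBS1 is both an activator and a target of TGF-beta. In a list of TGF-beta targets that also holds the ligand genes TGFB1, TGFB2 and TGFB3, 13 genes were tested. In TRB cells 3 rose and 1 fell, with a median of -0.21, which was -0.03 without replicate 2. FN1, the fibronectin gene, rose from 9.57 ± 0.530 to 242 ± 83.3 CPM (SD, n = 3, log2 4.66, edgeR adjusted p 4.01e-06), and CTGF (above) and TGFB3 (2.53, adjusted p 0.000911) rose too. TGFBI fell (-1.91, adjusted p 0.000594). Leaving out TRB with T3 replicate 1 gave 7 calls, and leaving out replicate 2 gave 9 of 14, when 4 rose and 5 fell.

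The lipase and protease partners of the angiopoietin-like proteins were higher with T3 in TRB cells for 3 of 6 tested genes: endothelial lipase LIPG (1.60, edgeR adjusted p 5.15e-05), PCSK5 (1.14, adjusted p 0.000426) and FURIN (2.26, adjusted p 0.0485). In EV cells 0 of the 6 passed with 12 libraries (median log2 fold change 0.48). Without TRB with T3 replicate 2, 5 passed there, all higher (median 0.47, where 7.33% of all genes passed), and 4 in TRB cells. The interaction called 0 with 12 libraries and 3 without that library (15.2% of all genes). The lipoprotein lipase gene LPL had 0 counts in every library. In TRB cells FURIN passed in 1 of 12 leave-one-out fits, that without TRB with T3 replicate 2. Of 13 tested PPAR receptors and targets 2 were called, near the 14.7% of all genes, and both fell, CPT1A (-0.93, adjusted p 0.00736) and PPARG (-0.47, adjusted p 0.0358), and PPARG too passed in that fit alone. Without replicate 2, 3 of these genes rose and 7 fell, where 33.3% of all genes were called.

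The genes most like ANGPTL2 in log2 CPM over 11 libraries, TRB with T3 replicate 2 left out, were the transcription factor gene GATA2 (Pearson r 0.995), PHLDB1 (0.995) and the cyclin gene CCNE1 (0.989), among 10094 genes compared. GATA2 went from 26.4 to 189.7 CPM with T3 in EV cells and from 16.4 to 371 CPM in TRB cells. The genes most like THBS1 were HEG1 (0.990), the interferon-induced OAS3 (0.985) and WDR55 (0.984). HEG1, a vascular development gene, went from 2.71 to 85.1 CPM in EV cells and from 2.64 to 271 CPM in TRB cells, much further than THBS1 did. These correlations follow the 4 groups, which the libraries share, and carry no test.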

How the data were processed

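RNA-seq was analysed from the raw counts per gene symbol that the authors deposited for each of the 12 libraries. Per the submitters' processing notes these come from CASAVA 1.7, STAR 2.7, HTSeq 0.10 and DESeq2 on build hg38; strand setting and annotation are not given in the sources used here, so overlapping and antisense genes are uncertain. The 5 closing lines of each file, for reads of no gene, were left out (not unique 19.03% to 91.95% of all lines, outside genes 2.14% to 24.4%, ambiguous 0.258% to 1.81%). A deposited normalized table was not used here.

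In R 4.3.3, edgeR 4.0.16 with limma 3.58.1 (filterByExpr with minimum count 10 and total 15, TMM, quasi-likelihood model with 4 group coefficients) was used for 5 contrasts. Tests were two-sided, and p-values were adjusted over all tested genes by Benjamini-Hochberg, with a threshold of 0.05. Standard errors come from the fold change and its F statistic. CPM is counts over the TMM-scaled library size. The script was tested on simulated counts. Floors of 3 counts per library cover counting error only. Alternatives were no filter, relative log expression scaling, DESeq2 1.42.0, the compared groups alone, a replicate block and leaving out each library; GC offsets (each library's trend against gene GC, a spline with 5 degrees of freedom) were chosen after seeing the data. GC, length and positions are from GENCODE release 29 (GRCh38), which may not be the annotation the authors counted.

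The members and lists were chosen with earlier results of these data known. All members are named, and of each list up to 4 called genes in each direction, overlapping genes, and the 3 genes (mean log2 CPM at least 3) most correlated with ANGPTL2 and THBS1. A further gene of the family list is not reported here.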

Additional observations from a re-analysis of the deposited data

Results flagged for a closer look

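Among the receptors, angiogenesis regulators, hypoxia genes and TGF-beta genes read beside the members, 10 genes had a T3 response that differed between TRB and EV cells by the interaction test (edgeR, adjusted p under 0.05, 12 libraries). Of all 14431 tested genes 2.59% did, and 0 of the members did. By list, the genes called were 1 of 10 tested receptors, 4 of 21 other angiogenesis regulators and 3 of 23 hypoxia targets. They were also 1 of 6 hypoxia regulators and 2 of 13 TGF-beta genes, with CTGF in both the angiogenesis and the TGF-beta list. With 3 libraries a group, single genes were not searched for an outlying value within a group. The interaction, as the log2 response in TRB cells minus that in EV cells, was 2.62 for NRP1, 2.74 for CTGF, 2.40 for FN1 and -1.57 for JAG1, and these 4 passed in each of the 12 fits that left out 1 library.

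It was 1.23 for EFNB2, 1.74 for TNFSF15, 2.0003 for ADM, 2.13 for EGLN1, 2.25 for P4HA1 and 2.50 for HIF1A. In fits that left out 1 library EFNB2 lost its call in 8 of 12 and P4HA1 in 8 (each EV library with vehicle, each TRB library with vehicle, and EV with T3 replicates 1 and 3), TNFSF15 and ADM in 7, HIF1A in 6 and EGLN1 in 3. TNFSF15 and ADM lost it without each TRB library with vehicle, EV with vehicle replicates 2 and 3, EV with T3 replicate 1 and, in turn, EV with T3 replicate 3 or 2. HIF1A lost it without TRB with vehicle replicates 1 and 3, EV with vehicle replicates 2 and 3 and EV with T3 replicates 1 and 3, and EGLN1 without TRB with vehicle replicate 1 and EV with T3 replicates 1 and 3. The highest adjusted p in these fits was 0.0835. In the fit of the other 11 libraries that omits TRB with T3 replicate 2, the adjusted p of these 6 genes ran from 7.86e-05 for ADM to 0.000783 for EFNB2. EFNB2 also lost its call with no filter on low counts (adjusted p 0.102).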

How the results depend on the processing

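The increase of ANGPTL2 and the decrease of VEGFA with T3 in TRB cells passed in all 19 alternatives run, with edgeR or DESeq2 adjusted p up to 0.0188 and 0.0449, both with the compared groups alone. THBS1 passed in 18 of 19. Calls over all genes follow in brackets. The number of members called in TRB cells, the picked pair included, was 2 with the compared groups alone (634). It was 4 with DESeq2 (3101), VEGFB among them (adjusted p 0.0419). With GC offsets it was 5 with TRB with T3 replicate 2 (4465) and without it (6873). It was 3 to 5 in the fits that left out 1 library (1256 to 4938), the 5 being without TRB with T3 replicate 2. The counts below leave out the picked pair. In EV cells the number was 1 with DESeq2 (172), with the compared groups alone (200) and with GC offsets (266). It was 2 with GC offsets without that library (2246), and 0 to 1 leaving out 1 library (10 to 1087). In vehicle it was 1 with the compared groups alone (1563) and 0 leaving out any library (1 to 11). With T3 it was 1 with no filter on low counts (ANGPT2) and 1 with GC offsets (2552). It was 2 with these and without that library (4998), and 0 to 1 leaving out 1 library (414 to 2918). For the interaction it was 1 with GC offsets (1448), 2 without that library as well (4264), and 0 to 1 leaving out 1 library (136 to 2259).

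Differences near 0 changed sign. VEGFB with T3 in EV cells was 0.07 without EV with vehicle replicate 1 and 0.10 without EV with T3 replicate 2, within -0.14 to 0.10 over the leave-one-out fits, and VEGFB in vehicle was -0.10 and -0.085 with GC offsets on 12 and 11 libraries. VEGFA between TRB and EV cells with T3 was 0.00466 with relative log expression scaling, 0.00784 with DESeq2, 0.36 with GC offsets, 0.15 with these on 11 libraries, and -0.14 to 0.18 over the leave-one-out fits (0.18 omitting TRB with T3 replicate 2). Its interaction was 0.14 with GC offsets. The cause was not tested.

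Over all genes, calls with T3 ranged from 634 (compared groups alone) to 6873 (GC offsets on 11 libraries) in TRB cells and from 10 to 2246 in EV cells, against 2128 and 33; in vehicle from 1 to 1563 against 3, between the vectors with T3 from 32 to 4998 against 964, and for the interaction from 136 to 4264 against 374.

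The sources used here do not say that same-numbered libraries share a culture or day, so they were not treated as pairs. In each of the 4 comparisons of a pair of groups 2 of 3 pairs had a correlation of deviations over 0.1, and 1 or 2 of 3 libraries correlated best with their own number. The highest such correlations, 0.73 for replicates 2 and 0.64 for replicates 3, were between TRB and EV cells with T3, where TRB replicate 1 and EV replicate 3 also correlated at 0.63. With the replicate block 3 members passed in TRB cells and 0 in the other contrasts, and the calls over all genes were 2278, 18 in EV cells, 2, 1068 and 395.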
